A study of Homo sapiens with 8 samples.

Results

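Clusters of distal accessible regions in solvent-treated MCF10A cells were chosen from the solvent peak list of an ATAC-seq time course. Peaks more than 3 kb from every annotated transcription start site (TSS) were kept, neighbours with gaps of 12.5 kb or less were joined, and groups of at least 4 peaks were taken as clusters. Of 86209 solvent peaks, 51147 were distal, and these joined into 30805 groups, of which 2220 were clusters. The clusters held 11593 peaks, 22.7% of the distal peaks and 27.7% of their summed signal. The other groups were 20037 single peaks and 8548 groups of 2 or 3 peaks.

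The study treated MCF10A cells, a non-tumorigenic human mammary epithelial line of basal character, with TGFβ1 to follow epithelial-mesenchymal transition (EMT). The 4 groups were profiled with 2 replicates each (8 libraries): cells given the solvent, BSA in PBS, and cells given 5 ng/ml TGFβ1 for 6, 24 or 72 h. The solvent samples are labelled time point 0, and the study's figure legend gives 72 h of solvent for the control plate. Cells of all groups were the parental line without genetic change. The peak caller scored both replicates of a group together, so each group is 1 list. A cluster therefore has 1 value per group, with no replicate error and no test, and all values below are descriptions.

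ATAC-seq reads DNA that a transposase can reach, and distal accessible regions in epithelial cells are mostly candidate enhancers, where transcription factors bind and act on promoters over a distance. Enhancers that crowd together around one gene are often found near genes that define a cell's identity, such as its lineage transcription factors and adhesion proteins. In EMT, epithelial cells loosen desmosomes and tight junctions and produce matrix and contractile proteins, with TGFβ acting through SMAD factors together with AP-1 and others. Accessibility does not show enhancer activity, and the marks used to define super-enhancers were not measured in these files.

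The measurement is the area under the significance curve (AUC) that the caller gives each peak. AUC grows with sequencing depth, peak height and peak width, and the number of reads used for each list is not given in the sources used here. The TGFβ1 lists were longer than the solvent list, with 107656, 118433 and 116720 peaks at 6, 24 and 72 h. For each cluster the AUC of all distal peaks inside its bounds was summed in each list, divided by the solvent sum, and scaled by the list's median log2 ratio at regions within 3 kb of a TSS. That median was 0.44, 0.38 and 0.24 on the log2 scale at 6, 24 and 72 h, over 33133, 33300 and 33008 regions. A cluster is called rising or falling where the scaled ratio passed 1.5-fold. All 8 basal mammary marker genes checked had a promoter peak in every list. So did 3 of 6 blood cell genes, while HBB and CD3E had none in any list, and in solvent 7 of 8 luminal and 2 of 4 endothelial genes had one, so a promoter peak alone does not mark a cell type here.

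The sequences below give the 201 bases around the summit of the strongest solvent peak of 8 clusters, the 2 largest, and, among clusters at or above the median solvent AUC, 3 of the largest rises and 3 of the largest falls at 72 h, so that the letters behind the motif counts can be read. All are from GRCh38, plus strand, 5′ to 3′, and none holds an annotated exon. Capitals mark matches, on either strand, to any of 10 motifs searched: AP-1 TGACTCA, TEAD GGAATG, RUNX TGTGGTT, GRHL AACCNGTT, CEBP TTNNGCAA, p63 (a pair of CATG with 6 bases between), SMAD GTCTNGAC, E-box CACCTG, ETS CCGGAAGT and KLF GGGNGTGG. A match is a string of letters and not a shown binding site.
PKP1 cluster, chr1:201309604-201309804: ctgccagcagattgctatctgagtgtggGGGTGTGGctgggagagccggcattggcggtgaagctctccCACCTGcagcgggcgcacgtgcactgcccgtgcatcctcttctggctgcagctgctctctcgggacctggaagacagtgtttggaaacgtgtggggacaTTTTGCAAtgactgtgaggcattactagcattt
PTPN14 cluster, chr1:214477015-214477215: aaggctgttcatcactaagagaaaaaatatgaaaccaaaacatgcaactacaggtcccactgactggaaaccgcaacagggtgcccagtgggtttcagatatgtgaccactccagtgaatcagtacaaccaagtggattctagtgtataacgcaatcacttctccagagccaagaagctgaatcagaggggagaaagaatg
GALNT15 cluster, chr3:16060409-16060609: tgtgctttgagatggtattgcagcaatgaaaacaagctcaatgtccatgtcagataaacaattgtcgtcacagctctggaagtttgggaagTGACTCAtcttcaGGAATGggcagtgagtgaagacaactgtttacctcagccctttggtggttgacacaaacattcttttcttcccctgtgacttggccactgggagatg
GABRP cluster, chr5:170752173-170752373: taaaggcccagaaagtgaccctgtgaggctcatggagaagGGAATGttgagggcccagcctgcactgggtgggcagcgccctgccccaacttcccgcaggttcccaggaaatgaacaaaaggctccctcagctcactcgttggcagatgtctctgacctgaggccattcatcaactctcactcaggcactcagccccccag
GRB10 cluster, chr7:50826911-50827111: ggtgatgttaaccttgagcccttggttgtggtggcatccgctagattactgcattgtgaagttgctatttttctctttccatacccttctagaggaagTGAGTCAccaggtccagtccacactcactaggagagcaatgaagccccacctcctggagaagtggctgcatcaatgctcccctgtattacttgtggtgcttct
DUSP5 cluster, chr10:110456794-110456994: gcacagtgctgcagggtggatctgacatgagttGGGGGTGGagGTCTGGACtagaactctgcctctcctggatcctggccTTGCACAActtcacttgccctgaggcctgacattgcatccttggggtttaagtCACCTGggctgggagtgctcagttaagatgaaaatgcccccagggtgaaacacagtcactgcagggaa
PIM3 cluster, chr22:49949043-49949243: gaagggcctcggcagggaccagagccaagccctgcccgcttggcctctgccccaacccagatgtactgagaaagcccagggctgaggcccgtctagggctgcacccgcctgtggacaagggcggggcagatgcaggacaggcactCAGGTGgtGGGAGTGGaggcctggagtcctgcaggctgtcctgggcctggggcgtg
N4BP3 cluster, chr5:178109025-178109225: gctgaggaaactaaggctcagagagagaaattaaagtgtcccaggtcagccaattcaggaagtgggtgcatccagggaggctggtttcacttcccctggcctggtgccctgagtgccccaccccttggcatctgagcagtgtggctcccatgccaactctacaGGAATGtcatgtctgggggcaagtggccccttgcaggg

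The strongest peaks of the GALNT15 and GRB10 clusters, both rising, held an AP-1 match beside their summit and the GALNT15 window also held a TEAD match. The window of GABRP, also rising, held a TEAD match and no AP-1 match. The windows of the falling DUSP5 and PIM3 clusters held E-box and KLF matches and no AP-1 match, and the DUSP5 window also held SMAD and CEBP matches. That of N4BP3, also falling, held only a TEAD match. Windows not printed also ran both ways, with a RUNX match alone in the rising SEMA7A cluster and AP-1 and E-box matches in the falling INCENP cluster. The PTPN14 window, from the second largest cluster, held none of the 10 motifs.

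Most clusters were small. The median cluster had 5 peaks over 17.7 kb, and 1081 of the 2220 had exactly 4 peaks. The largest number of peaks was 23 and the longest span 103 kb. Neighbouring peaks in a cluster were a median of 2.98 kb apart. The strongest peak held a median of 40.1% of a cluster's AUC, so the typical cluster was 1 strong region with several weaker ones. Clustered peaks had a median AUC of 744 and a width of 373 bp, against 578 and 291 bp for the other distal peaks. Groups of 3 peaks, just outside the rule, numbered 2421 with a median summed AUC of 2481, and clusters of 4 peaks, just inside it, had 3599. The largest gap joined was 12.498 kb and the smallest that split a group 12.501 kb.

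Clusters are named here for the protein-coding gene whose TSS lay nearest to their midpoint, which is a label and not a shown target. The median distance was 28.1 kb, and 360 clusters (16.2%) lay over 100 kb away. In all, 1204 clusters overlapped a protein-coding gene body, 948 of them over their whole length, and for 153 that gene was not the nearest by TSS. The 2220 clusters carried 1780 gene names, and 335 genes had more than 1 cluster. Of the clustered summits, 57.1% were in introns, 3.15% in exons and 39.8% outside annotated genes (Wilson 95% interval 38.9 to 40.7%, counting error only). The other distal peaks gave close shares of 57.9%, 3.82% and 38.3%. Density ran from 21.8 clusters per 100 Mb on chromosome X to 124 on chromosome 20 and 111 on chromosome 1. DNA copy number was not taken into account in density, in AUC or in the number of clusters per gene, and its part was not tested.

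The summed solvent AUC ran from 1072 to 56228, with a median of 4647. The cluster at PKP1, which encodes the desmosomal protein plakophilin 1, was the largest, 12.1 times the median. It spanned chr1:201253988-201312199 with 18 peaks and summed to 56228 in solvent and 80794, 78550 and 66270 at 6, 24 and 72 h. After scaling these were within 1.08-fold of solvent at each time. The cluster in PTPN14, a phosphatase that restrains YAP, had 21 peaks over 97.3 kb and sums of 44131, 64085, 63072 and 63208, a scaled ratio of 0.27 (log2) at 72 h. The IER5 cluster had the most peaks, 23, and sums of 37138, 51049, 50761 and 50233, with scaled ratios of 0.02, 0.07 and 0.19.

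The remaining 7 of the 10 largest clusters were named for AZIN1, SH3TC2, SPARC, CAMK1G, BHLHE40, DNAJB12 and ELF3. SPARC encodes a matrix glycoprotein, BHLHE40 a transcriptional repressor and ELF3 an epithelial ETS factor. The 10 largest were picked for a high solvent AUC, the divisor of the ratio. In the strongest of 4 solvent AUC classes, 0.18%, 1.26% and 3.06% of clusters were rising at 6, 24 and 72 h. The falling shares there were 0.36%, 0.36% and 0.721%. None of the 10 passed 1.5-fold at any time. The most raised was SH3TC2, with 20 peaks and sums of 32244 in solvent and 44949, 47797 and 51740 under TGFβ1, a scaled ratio of 0.44 at 72 h. The most lowered was ELF3, with 12 peaks and sums of 26976, 33135, 30580 and 27786, a scaled ratio of -0.20 at 72 h, where 3 of its 12 solvent peaks had no overlapping peak.

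On the ranked curve, a line of slope 1 with both axes set to their range touched at an AUC of 11173. The 164 clusters past that point (7.39%) held 21.0% of all clustered AUC. Their median scaled ratio was 0.00, 0.00 and 0.04 at the 3 times, and by 72 h 3 of them were rising and 1 falling. Of all clusters, 16.4% were rising and 1.76% falling at 72 h. In the strongest of 4 classes of 555 clusters by solvent AUC, these shares were 3.06% and 0.721%. The solvent AUC is the divisor of the ratio, so a pick by high solvent AUC favours few rises by construction.

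Genes with several clusters were led by TRIB1, ZMIZ1, MYC and ASAP1 with 6 each and BCAR3 with 5. The 6 MYC clusters, at the oncogenic transcription factor's locus, held 29 peaks and summed to 29153 in solvent and 44759, 43410 and 42101 under TGFβ1, a scaled ratio of 0.29 at 72 h. The 6 clusters of ZMIZ1, a transcriptional co-regulator, summed to 37054, 51344, 49720 and 43591, a scaled ratio of -0.0091 at 72 h. The 4 clusters in RUNX1, a transcription factor of mammary and blood cells, summed to 23740, 41056, 40935 and 40711 and gave 0.35, 0.41 and 0.53.

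After TGFβ1, most clusters stayed within 1.5-fold of solvent. At 6 h 88 clusters (3.96%) were rising and 12 (0.541%) falling, where the background over all 30805 groups was 12.1% rising and 2.22% falling. At 24 h 267 (12.0%) were rising and 25 (1.13%) falling, against 24.7% and 4.01% of all groups. At 72 h the numbers were 365 (16.4%) and 39 (1.76%), against 28.5% and 5.6%. The median scaled ratio of clusters was 0.13, 0.17 and 0.23 (log2), and that of all groups 0.12, 0.24 and 0.28. The 3 ratios share the 1 solvent list, so they are not independent. No cluster was rising at one time and falling at another.

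The balance between rising and falling depends on the scaling. With lists scaled on distal regions outside the clusters, 80 clusters were rising and 88 falling at 24 h, and 114 and 124 at 72 h, with medians of -0.08 and -0.06. With lists scaled by total AUC, 126 were rising and 115 falling at 72 h. At 24 and 72 h the clusters were higher on balance when measured from the promoters, and were not when measured from the other distal regions. At 6 h scaling on those distal regions gave 47 rising and 17 falling, with a median of 0.0075.

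**Figure D1:**
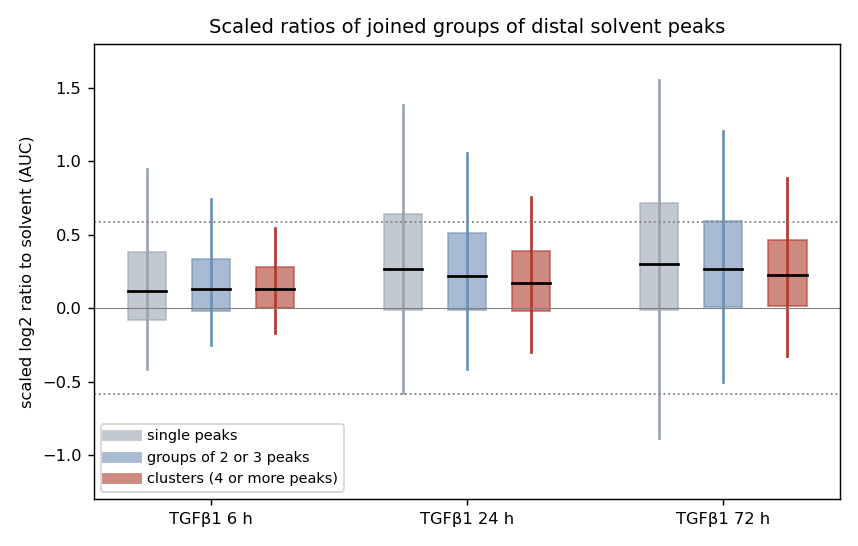
Scaled log2 ratio to solvent of single distal peaks, groups of 2 or 3 peaks and clusters at 6, 24 and 72 h of TGFβ1. Boxes span the 25th to the 75th percentile of groups, black lines are medians, whiskers reach from the 5th to the 95th percentile of groups, and dotted lines mark 1.5-fold. Clusters had the narrowest spread at each time, with a 95th percentile of 0.89 at 72 h against 1.55 for single peaks.

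A sum over several peaks varies less than a single peak, and the narrower spread of clusters may be read with this in mind. The solvent AUC is the divisor of the ratio, so a low solvent value favours a high ratio by construction, and the shares by strength are given only as description. When the clusters were divided by solvent AUC into 4 classes of 555, 191 of the weakest class (AUC 1072 to 3225, 34.4%) were rising at 72 h, as were 17.3% and 11% of the next 2 classes and 3.06% of the strongest (6919 and above). Falls were 2.16%, 2.52%, 1.62% and 0.721%, also fewest in the strongest class. By size, 19.9% of the 1081 clusters of 4 peaks and 5.13% of the 78 clusters of 10 or more were rising at 72 h. The falling shares of these 2 sizes were 2.87% and 0%.

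Single peaks could be compared only where a distal peak was still measured at 72 h, which leaves out lost peaks. Distal peaks were divided by solvent AUC into 4 classes of equal size. In the weakest class the median scaled ratio at 72 h was 0.70 over 1919 of 2339 clustered peaks and 0.63 over 9290 of 10448 others, and in the strongest class 0.07 over 3767 and 0.10 over 8774. The shares of clustered peaks past 1.5-fold lower were 7.14% and 7.36% in the 2 middle classes, against 4.58% and 4.69% of the others.

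The clusters with the largest rises were named among those at or above the median solvent AUC. The cluster near GALNT15, an enzyme of mucin-type O-glycosylation, lay 114 kb from that gene's TSS at chr3:16048780-16072700. Its 7 solvent peaks summed to 4792, with 10168, 13802 and 16181 under TGFβ1, a scaled rise of 1.56-, 2.22- and 2.85-fold. In AUC per base its ratio was -0.0087 at 6 h and 0.36 at 72 h (log2). It gained 4 peaks at 72 h, which held 31.8% of its AUC there. Its strongest solvent peak and the next had merged by 72 h into 1 peak with an AUC of 4864, from 2347 and 645.

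The cluster near SEMA7A, a membrane-anchored semaphorin, was rising at each time without a new peak. Its 6 peaks summed to 6257, 16960, 18481 and 19625 in the 4 lists, a scaled ratio of 1.00, 1.18 and 1.41. One of its peaks counted as near a TSS in the 24 h list and is missing from that sum. The GABRP cluster, near a GABA receptor subunit gene, went from 5065 to 12719, 14763 and 14465 (2.41-fold at 72 h), with its strongest peak at 2247 in solvent and 7679 at 72 h. The cluster of GRB10, an adaptor that binds the insulin receptor, had sums of 6789, 16014, 19475 and 19275. SEMA7A, GABRP and GRB10 were past 1.5-fold at 6 h, as was GALNT15. So were the COL27A1 (1.76-fold), INSC (1.53-fold), TTC8 (1.54-fold) and BTBD16 (1.58-fold) clusters described next, while TGFB2, at 1.48-fold, was not.

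Matrix and ligand genes were among the named rises. The cluster in COL27A1, a fibrillar collagen gene, summed to 5400, 12895, 14827 and 14706, a 2.30-fold rise at 72 h. The cluster 47.1 kb from the TSS of TGFB2, a ligand of the same receptors as TGFβ1, had 9 peaks and sums of 6527, 13111, 14958 and 15954, and was 1.48-fold, 1.76-fold and 2.06-fold higher. In it 2 neighbouring solvent peaks of 1071 and 756 were 1 peak of 5251 at 72 h. The others were INSC, which orients the mitotic spindle, at 2.25-fold, TTC8, a subunit of the ciliary BBSome, at 2.15-fold, and BTBD16 at 1.98-fold at 72 h. In AUC per base, GABRP alone of these 9 stayed past 1.5-fold at 72 h (0.83), and the others had ratios from 0.12 at TGFB2 to 0.42 at TTC8.

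Falls were fewer, 39 against 365 rises at 72 h. Over all clusters the ratios at 72 h ran from -2.08 to 1.76, and the falls named here are the lowest among clusters at or above the median solvent AUC. The cluster 8.20 kb from the TSS of PIM3, a serine/threonine kinase, summed to 9796 in solvent and 10625, 7594 and 5244 under TGFβ1, a scaled ratio of -0.32, -0.74 and -1.14. All 4 of its peaks were lower at 72 h, the strongest with 4786 in solvent and 2781 at 72 h. The N4BP3 cluster went from 5471 to 5975, 4704 and 3368 (-0.94 at 72 h), and its strongest peak from 2837 to 1181. The INCENP cluster, named for a chromosomal passenger protein, went from 5469 to 6019, 4568 and 3642, and lost a peak of 1333.

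RXRA, a nuclear receptor that pairs with retinoid and other receptors, had the strongest of the 10 falling clusters, with 7 peaks and sums of 12425, 12362, 11531 and 9345 (-0.65 at 72 h). The others, by ratio at 72 h, were SRGAP2C at -0.83, TACC3, a spindle protein, at -0.72, COL23A1 at -0.71, FRMD8 at -0.68 and SLC45A1 at -0.65. The SRGAP2C cluster carries that name only as the nearest, 3992 kb away across the centromere region of chromosome 1. It was lowest at 6 h, with sums of 5125, 2653, 3229 and 3423.

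Some falls came with a change of class of a peak. Where a TGFβ1 peak is wider than the solvent peak and reaches within 3 kb of a TSS, it leaves the distal sum. This touched 10 of the 12 clusters falling at 6 h, 6 of 25 at 24 h and 8 of 39 at 72 h, against 51, 45 and 43 of all clusters. The cluster near DUSP5, a nuclear phosphatase of ERK, had the lowest ratio at 72 h among clusters at or above the median solvent AUC, -1.39, with sums of 4673, 4017, 2135 and 2107. Its first peak, 970 in solvent and 1681 at 72 h, counted as near a TSS in the TGFβ1 lists. With such peaks summed on either side of the limit, a reading chosen after seeing the data, DUSP5 gave -0.21, -0.77 and -0.55 and FRMD8 0.28 at 72 h. This reading sets the whole TGFβ1 peak, with its part near the TSS, against distal solvent peaks alone. At FRMD8 a near-TSS peak of 6149 at 72 h stood over a solvent peak of 1039. The cluster at LMNA, a nuclear lamina gene, stood at -0.80 at 6 h and gave -0.12 in this reading. Without the clusters so touched, 2, 19 and 31 were falling at the 3 times.

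Peaks were rarely lost. Of the 11593 clustered solvent peaks, 99.2%, 97.5% and 95.9% overlapped a peak at 6, 24 and 72 h, and the other distal peaks gave 99.2%, 98.1% and 96.4%. In the weakest of the 4 AUC classes, 14.8% of clustered peaks (Wilson 95% interval 13.5 to 16.3%) had no overlapping peak at 72 h, against 9.94% (9.39 to 10.5%) of others. Peaks near the caller's minimum AUC of 200 pass in and out of a list with small changes of signal.

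New distal peaks inside cluster bounds numbered 930, 1070 and 1021 at the 3 times. Per Mb of sequence free of solvent peaks and of TSSs this was 26.3, 30.2 and 28.8, against 18.7, 24.4 and 24.0 in the flanks and 23.1, 29.2 and 27.5 inside groups of 2 or 3 peaks. At 72 h 198 of the 365 rising clusters (54.2%) had a new peak, against 548 of 1816 (30.2%) within 1.5-fold. The new peaks held 6.17% of the AUC of rising clusters, so most of the added AUC was at solvent peaks. Of the 39 falling clusters, 0 had a new peak, which allows a share of up to 7.69%, and 28 had lost at least 1. These counts enter the ratio that defines the classes and are given as description.

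Much of the rise was in width. The summed peak width of rising clusters at 72 h had a median of 1.55 kb in solvent and 2.41 kb at 72 h, a median log2 width ratio of 0.59, where promoter regions gave 0.05. All clusters gave 0.30, 0.26 and 0.22 at 6, 24 and 72 h. In AUC per base, 7, 34 and 42 clusters were rising and 5, 3 and 4 falling. Deeper libraries also give wider peaks, and the part of depth was not tested.

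Single-peak ratios differed widely within a cluster. Between-cluster differences made up 8.89%, 12.1% and 14.0% of the variance of single-peak ratios at 6, 24 and 72 h, and the SD within a cluster was 0.52, 0.61 and 0.65 (log2). In groups of 2 or 3 peaks the shares were 15.2%, 18.6% and 19.2%. In 673 of the 2220 clusters (30.3%) all measured peaks were on the same side of 0 at 72 h. In groups of 2 or 3 peaks this share was 61.6%, and fewer peaks meet it more easily. With 1 list per group the spread has no replicate error beside it, and the part of measurement noise was not tested.

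Of all 20046 protein-coding genes 9.42% had a cluster by nearest TSS or gene body, and in the 10 lists of mammary epithelium and EMT genes the share ran from 24.1% to 60%. These lists were chosen with earlier results of these data known. Of the 15 epithelial transcription factors, 8 had a cluster (TP63, GRHL2, GRHL3, ELF3, KLF4, KLF5, TFAP2A and SOX9), with 18 clusters in all. At 72 h, when 16.4% of all clusters were rising and 1.76% falling, 2 of these 18 were rising and 0 falling. Their median scaled ratio at 72 h was 0.11, against 0.23 for all clusters. A cluster 270 kb from the TSS of SOX9 had the highest ratio of them, 3625, 6400, 6568 and 7457 (0.80), and a GRHL2 cluster the lowest, 8052, 10556, 7979 and 7602 (-0.33). KLF5, a zinc finger factor of epithelia, had 4 clusters with ratios from -0.02 to 0.52.

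Of 29 genes of keratins, desmosomes and junctions, 7 had a cluster, with a median ratio of 0.05 at 72 h over 8 clusters. Of these 8, 1 was rising, against 16.4% of all clusters. TJP1, which encodes the tight junction scaffold ZO-1, was rising, with 6815, 12675, 14320 and 13226 (0.71), and KRT17, a basal keratin, had 14668, 18716, 17397 and 14933 (-0.22). Of 9 hemidesmosome and laminin-332 genes, 5 had a cluster. Among them were the laminin chain genes LAMB3, at 24552, 31154, 30865 and 38799 (0.42), and LAMA3, at 5775, 8870, 8864 and 9028 (0.40). A cluster in DST was rising at 72 h (0.60) by summed AUC but stood at -0.080 by AUC per base. In LAMB3, 5 solvent peaks were overlapped at 72 h only by peaks counted as near a TSS.

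Of 30 matrix, adhesion and contractile genes, 13 had a cluster, with 5 of 18 clusters rising at 72 h and a median of 0.48, where all clusters gave 16.4% rising and 0.23. Both clusters near FBN1, the microfibril protein fibrillin 1, were rising, one with 2699, 5704, 7972 and 8215 (1.36) and one with 2902, 5148, 6882 and 7077 (1.04). Both lay in the weakest class of clusters by solvent AUC, of which 34.4% were rising at 72 h. The cluster named for CDH2, the gene of N-cadherin, lay 982 kb from its TSS and had 3939, 9597, 9633 and 8970 (0.94). One of the pair named for TNC, the matrix protein tenascin C, lay 140 kb from that TSS and had 4685, 9167, 6334 and 9788 (0.82). The SPARC cluster, the sixth largest of all, stood at -0.05. Fibroblast marker promoters with a peak numbered 4 of 6 in solvent, 5 at 6 h and 6 at 24 and 72 h, and their part in these values was not tested. Their summed AUC, not scaled between lists, was 14222, 24298, 26410 and 23732. The basal mammary marker promoters gave 58356, 165335, 177647 and 178692. The luminal, endothelial and blood cell sums were also above solvent in each TGFβ1 list, so a higher sum was not particular to fibroblast markers.

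Of 23 TGFβ pathway genes, 13 had a cluster, and 4 of 19 clusters were rising at 72 h, at TGFB2, SMAD7, ID3 and TGFB1. The list's median was 0.16, below the 0.23 of all clusters, of which 16.4% were rising. SMAD7, the inhibitory SMAD that TGFβ induces, had one cluster with 2463, 5643, 6632 and 5556, a ratio of 0.76, 1.05 and 0.93. This cluster was in the weakest solvent AUC class, of which 34.4% were rising at 72 h. A second and stronger SMAD7 cluster, with 9799 in solvent, stood at 0.21, 0.25 and 0.28 and was not called. The other TGFB2 clusters stood at -0.24 and 0.16 at 72 h. ID3, a target of SMAD signalling that blocks other helix-loop-helix factors, had 4310, 7075, 8021 and 7946 (0.64). The cluster over TGFB1 itself had 4607, 9129, 9669 and 8351 (0.61). The coreceptor TGFBR3 had 3 clusters, 2 of them at -0.39 and -0.43. The clusters of SMAD3 and TGFBR2 stood at 0.09 and 0.37.

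Of 6 EMT transcription factors, SNAI1 and SNAI2 had a cluster. SNAI2 had 2800, 5882, 6657 and 5357, rising at each time (0.63, 0.87 and 0.69), although it stood at -0.028 at 24 h by AUC per base. The SNAI2 cluster was also in the weakest solvent AUC class, of which 34.4% were rising at 72 h. SNAI1 had 7607, 14089, 13694 and 12830 (0.51 at 72 h). Of the AP-1 subunits, JUN, JUND, FOS and MAFK had clusters, with a median of 0.04. The 2 FOS clusters were at -0.20 and -0.59, the latter, with 4490, 4832, 4111 and 3524, just past the limit.

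Calls in the next 3 lists are read beside the 16.4% rising and 1.76% falling of all clusters at 72 h. The EGFR pathway list had clusters at 12 of 20 genes, with a median of 0.15 over 21 clusters and only the DUSP5 cluster called. That call was lost with peaks summed on either side of the TSS limit (-0.55). The 2 clusters in EGFR, with 11000 and 10306 in solvent, stood at 0.24 and 0.15. The YAP and TEAD list had 4 of 10 genes with a cluster, a median of 0.03 and 0 called at 72 h, and WWTR1, a partner of TEAD factors, had one cluster at 0.53 and one at -0.35. The RUNX and GATA list had 3 of 6, and all 4 RUNX1 clusters were higher (0.36 to 0.64), with 1 of them called.

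**Figure D2:**
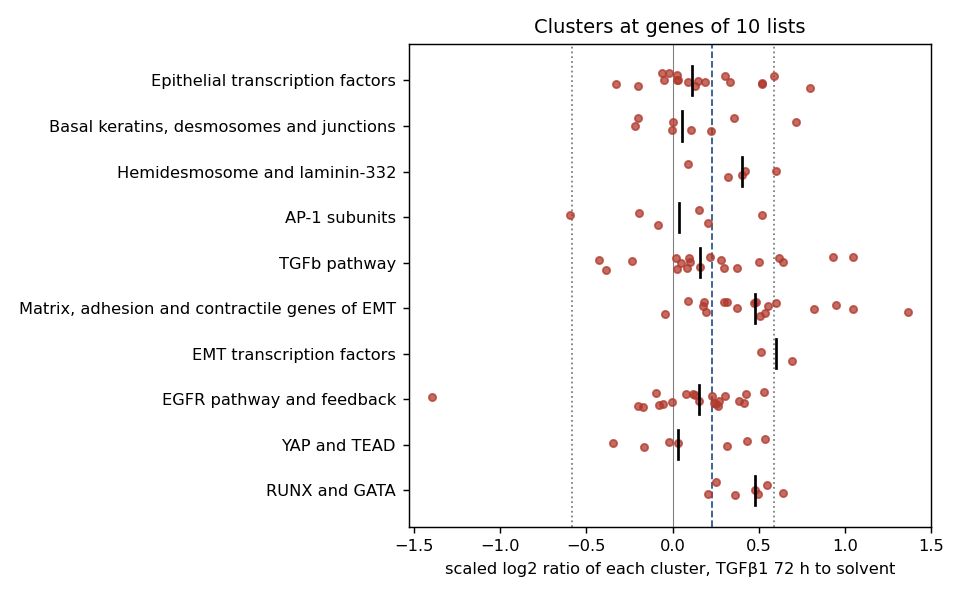
Scaled log2 ratio at 72 h of clusters (1 point each) at the genes of 10 lists, jittered for sight. Black bars are list medians, the dashed line is the median of all clusters (0.23) and dotted lines mark 1.5-fold. The matrix list has its median at 0.48 and the junction list at 0.05, and the point farthest left is the DUSP5 cluster at -1.39.

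The scaling sets the median promoter region to 0 and the clusters were picked for passing 1.5-fold, so the sizes of promoter and cluster ratios are not compared. Over the 215 genes with a promoter peak named only for rising clusters at 72 h, the median scaled promoter ratio was 0.09, and 62.3% were above 0. Over 25 genes of falling clusters it was -0.09, with 32% above 0. Genes of clusters within 1.5-fold gave -0.01 and all protein-coding genes -0.03, with 42.9% above 0. Of the 215 promoters, 28 (13.0%) passed 1.5-fold higher, against 5.89% of all. Of the 25 promoters of falling clusters, 2 (8%) passed 1.5-fold higher and 1 (4%) lower, against 5.89% and 1.11% of all. At 24 h 14 of 160 promoters of rising clusters (8.75%) passed 1.5-fold higher, against 6.25% of all. Of 18 promoters of falling clusters at 24 h, 2 passed it higher and 0 lower.

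Motif matches were counted in 201 bp around each summit, a readout the choice of clusters did not use. An AP-1 match stood in 35.2% of clustered windows (Wilson 95% interval 34.3 to 36.0%) and 38.1% (37.6 to 38.5%) of other distal windows. It was lower in clusters in each of the 4 AUC classes, from 28.5% against 32.7% in the lowest to 40.6% against 43.9% in the highest. In windows midway between peaks of a cluster, free of peaks in all lists, it stood in 2.65%. KLF matches were more frequent in clustered windows, 9.91% against 7.85%, and mean GC content was 49.3% against 47.9%. TEAD, RUNX, GRHL, p63, SMAD, E-box and ETS shares had overlapping intervals in the 2 sets. In all, 1920 of the 2220 clusters (86.5%) had an AP-1 match at 1 summit or more.

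Motif shares were also read by class at 72 h. AP-1 stood in 40.5% (38.2 to 42.8%) of the 1760 windows of clusters rising at 72 h, 34.5% of those within 1.5-fold and 16.9% (12.0 to 23.2%) of the 172 windows of falling clusters. By cluster, 327 of 365 rising (89.6%) and 21 of 39 falling (53.8%) had at least 1 AP-1 match. E-box matches went the other way, with 16.2%, 20.0% and 30.8%, as did KLF with 7.56%, 10.2% and 16.3%. In windows between the peaks E-box stood in 19.3%, close to the 19.6% of all clustered windows, and KLF in 6.73%. SMAD matches stood in 2.05% (1.48 to 2.82%) of rising windows and 1.15% (0.955 to 1.38%) of those within 1.5-fold. Mean GC content was 47.5% in rising, 49.5% in intermediate and 51.9% in falling windows and its part in these shares was not tested. In the 135 windows of falling clusters without a change of class, AP-1 stood in 14.1% and E-box in 32.6%. Windows of a cluster share its neighbourhood, so these intervals are narrower than those of independent sites.

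New peaks inside clusters at 72 h held AP-1 in 33.9% (31.1 to 36.8%) of 1021 windows, against 40.9% (40.4 to 41.5%) of 26360 new peaks elsewhere. RUNX stood in 9.30% and 9.16% of the 2 sets, above the 6.73% of clustered solvent peaks. CEBP stood in 11.8% and 12.0%, below the 15.1% of clustered solvent peaks.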

How the data were processed

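ATAC-seq was measured in 8 MCF10A libraries in 4 groups. By the submitters' processing notes the authors used Trimmomatic 0.38, Bowtie2 2.4.5 (GRCh38), Picard, SAMtools 1.4.1 and Genrich 0.5. The deposited coverage signal is Genrich's AUC per peak (minimum 200), called on both replicates of a group together and not scaled between lists. The condition of each list was read from its deposited name. The reads used per list are not given in the sources used here, and intervals cover counting error only.

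Distance was taken to every GENCODE 44 TSS, with Python 3.11.15, pandas 2.3.3 and scipy 1.17.1. An overlap is at least 1 bp. The joining and scaling were tested on made-up lists with known clusters. The members, motifs and gene lists were chosen with earlier results of these data known. Named clusters are the 10 largest by solvent AUC, the 3 with the most peaks and, at or above the median AUC, the 10 highest and 10 lowest at 72 h and the 3 highest and lowest at 6 and 24 h, with values for up to 4 clusters per list. Others in the lists were named after their values were seen. Some clusters and marker genes are not reported here. Alternatives covered gaps, peak numbers, TSS sets, AUC minimum, list length, scaling and fold.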

Additional observations from a re-analysis of the deposited data

How the results depend on the processing

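The counts of clusters that were rising, and then falling, at 6, 24 and 72 h changed with most settings, and the cause was not tested. A 5 kb gap gave 923 clusters, 34, 72 and 111 rising and 4, 18 and 26 falling. A 20 kb gap gave 3123 clusters, 138, 417 and 565 rising and 14, 22 and 40 falling. At least 3 peaks per cluster gave 4641 clusters, 267, 683 and 909 rising and 26, 70 and 116 falling. At least 6 peaks gave 631 clusters, 13, 53 and 76 rising and 1, 1 and 4 falling. Protein-coding TSSs only gave 2933 clusters, 130, 386 and 501 rising and 4, 21 and 32 falling. Distance from the summit gave 2289 clusters, 90, 273 and 376 rising and 4, 23 and 34 falling. An AUC minimum of 400 gave 1160 clusters, 28, 97 and 131 rising and 4, 12 and 14 falling. Lists of equal length gave 2220 clusters, 68, 204 and 282 rising and 25, 62 and 77 falling. Clusters built from the 72 h list gave 4146 clusters, 800, 1467 and 1796 rising and 7, 11 and 14 falling. No scaling gave 1055, 986 and 815 rising and 1, 6 and 13 falling. Scaling on distal regions outside clusters gave 47, 80 and 114 rising and 17, 88 and 124 falling. Scaling by total AUC gave 47, 91 and 126 rising and 17, 71 and 115 falling. A 2-fold limit gave 5, 35 and 72 rising and 1, 6 and 8 falling. AUC per base gave 7, 34 and 42 rising and 5, 3 and 4 falling. Summing peaks on either side of the TSS limit gave 98, 276 and 375 rising and 2, 20 and 31 falling. Leaving out clusters with such peaks gave 88, 262 and 360 rising and 2, 19 and 31 falling. The last 2 were chosen after seeing the data. Only new peaks left out kept all 6 counts within 1.5 times. Of 60 named ratios past 1.5-fold, 5 kept that side under every setting run, and 7 changed sign: by AUC per base SNAI2 at 24 h (-0.028), GALNT15 at 6 h (-0.0087), DST (-0.080) and FRMD8 (0.065) at 72 h, with a 20 kb gap WWTR1 at 24 h (0.045), from the summit LMNA at 6 h (0.0077), and on either side of the limit FRMD8 at 72 h (0.28). No paired analysis was possible because each list pools both replicates, and no replicate could be left out. No value has a replicate error, and what depth adds to a difference between lists was not tested.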
